A study of Camellia sinensis with 6 samples.

Results

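The unigenes described here are those that the annotation of the tea leaf transcriptome ties to ethylene and to the AP2/ERF transcription factors. They were found by words in the name of the best hit in the Non-redundant protein database (Nr), such as ethylene, aminocyclopropane, EIN2, EIN3, CTR1, AP2/ERF and dehydration-responsive element. Of the 127252 unigenes in the table, 320 matched and 25 were dropped because the hit was an oxidase homolog, which left 295. Among these, 281 fell into 3 classes, with 21 in ethylene synthesis, 81 in ethylene signalling and 179 AP2/ERF factors. The other 14 were set apart, since 11 matched only by letters inside another name (methylene, for example) and 3 were translation elongation factors. ‘Huangjinya’ is a tea cultivar (Camellia sinensis) whose leaves are yellow in sunlight and green in shade. The shaded group (Y+S, green leaves) was kept for 10 days under a net that took away about 45% of the light, and the sunlight group (Y, yellow leaves) grew uncovered. Both groups were two-year-old plants of the same field, sampled at the third leaf below the tip, and each gave 3 libraries from different plants (Y+S1, Y+S2, Y+S3 and Y1, Y2, Y3).

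Ethylene is a gaseous plant hormone made from S-adenosylmethionine by ACC synthase and ACC oxidase. Its receptors in the endoplasmic reticulum keep the kinase CTR1 active when no ethylene is bound, and CTR1 then holds back EIN2. When ethylene binds, EIN2 is released and the transcription factors EIN3 and EIL accumulate, which the F-box proteins EBF1 and EBF2 otherwise mark for degradation. EIN3 switches on genes of the ERF family, whose members carry the AP2 DNA-binding domain and read GCC-box or DRE elements in the promoters of defence, cold and drought genes. These roles are known best from Arabidopsis. No tea sequence was used here, so each unigene is given by its name in the assembly and by the protein it matched.

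The values below are FPKM as deposited, which are fragment counts scaled to the length of the unigene and to the fragments of the library, and the tests were made on the deposited counts with edgeR. The libraries held between 10022397 and 18742989 counted fragments, of which the 281 members took 0.395% to 0.602%. Y1 and Y+S3 stood apart. The share of counts from unigenes of at least 3000 nt was 4.77% in Y+S3 and 5.54% in Y1, against 6.77% to 9.41% in the other 4 libraries. The study left both out of its search for differentially expressed genes, so each comparison was fitted first over Y+S1, Y+S2, Y2 and Y3 and then over all 6 libraries. Photosynthesis markers of leaf mesophyll were abundant in every library, with a summed FPKM between 8749 and 26343 over 50 unigenes. The sample descriptions carry the codes 13 and 21 for Y+S1 and Y3, while the key of the table gives those codes to Y+S3 and Y1. The key was followed. The TMM factors, by which edgeR scales libraries, were 0.695 in Y+S3 and 0.761 in Y1, against 1.08 to 1.29 in the other 4 libraries, so these 2 libraries stand higher in normalised CPM (counts over the scaled library size) than in FPKM.

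No member passed an adjusted p of 0.05 in either fit. Over 4 libraries 205 members were tested by edgeR's quasi-likelihood test and 0 were called, where 0.0529% of all 64281 tested unigenes were called. The smallest Benjamini-Hochberg adjusted p of a member was 0.0936. DESeq2 called 10 members, against 2.90% of the unigenes for which it gave an adjusted p. At an unadjusted p below 0.05, 48 members stood out in the edgeR fit, against a background of 14.9%. Of these, 34 were higher under shading (background 7.23%) and 14 were lower (background 7.69%). These were 23.4% of the tested members in either direction, 16.6% higher and 6.83% lower. Among the 34, 9 were RAP2-7-like factors, many of which were rare and passed the filter through the shaded libraries. Without Y+S1 edgeR called 24 members, which were 10.8% of those tested against 5.03% of all unigenes, and without Y+S2 it called 33, which were 15.5% against 9.55%. Without Y2 or Y3 it called 0, as over all unigenes. Without Y2 an unadjusted p below 0.05 was reached by 30 members, or 13.2% against 5.57%.

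Over 6 libraries 193 members were tested and edgeR called 0, as it did for all unigenes (0%), with a smallest adjusted p of 0.496 among the members. At an unadjusted p below 0.05 there were 29 members, against a background of 8.06%. Of these, 20 were higher and 9 were lower, with backgrounds of 4.39% and 3.67%. DESeq2 called 3 members, against 0.857% of all. These were Unigene40607, Unigene1437 and CL12608.Contig2, all higher under shading. The scatter between libraries was larger in this fit, with a biological coefficient of variation of 0.513 against 0.282 over 4 libraries. The shaded and sunlight libraries did not overlap in normalised CPM for 39 members, against a background of 14.0%. They were 27 members with every shaded library higher (background 6.67%) and 12 with every shaded library lower (background 7.28%). Without Y+S3 the number without overlap was 81, or 42.0% of the members against 39.2% of all unigenes.

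**Figure D1:**
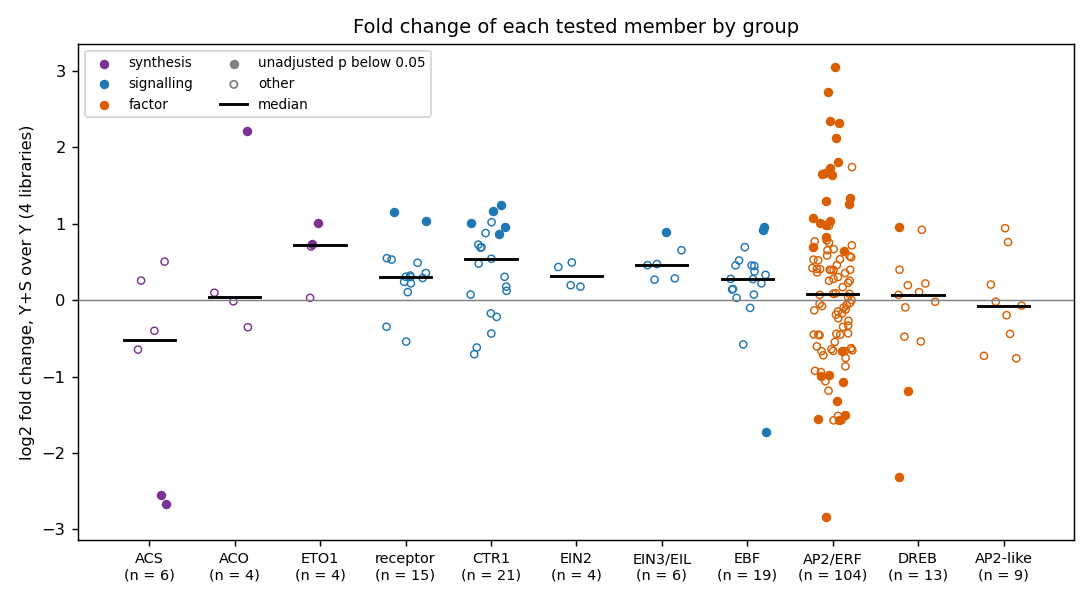
Log2 fold change of shaded over sunlight leaves in the 4-library edgeR fit for each of the 205 tested members, with 1 point per unigene, filled at an unadjusted p below 0.05, and a bar at the median of each group. In signalling 55 of 65 points lie above 0, whereas the 126 factors spread on both sides, 66 above and 60 below.

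Of the synthesis unigenes, the most abundant ACC oxidase was higher under shading and the most abundant ACC synthase was lower. ACC oxidase carries out the last step to ethylene. Unigene40607 (835 nt) had 39.0, 104 and 141 FPKM in the shaded libraries (Y+S1 to Y+S3), against 12.3, 14.3 and 14.7 FPKM in the sunlight ones (Y1 to Y3). Every shaded library lay above every sunlight library, and the shaded libraries differed among themselves far more than the sunlight ones. Its log2 fold change was 2.21 ± 0.41 (SE) over 4 libraries, with an adjusted p of 0.130 by edgeR's quasi-likelihood test, and 2.94 over 6 libraries with an adjusted p of 0.496. DESeq2 gave an adjusted p of 5.8e-05 over 4 libraries.

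The other ACC oxidases did not share this pattern. Unigene2695 had 11.04, 17.9 and 15.6 FPKM in the shaded libraries, against 13.9, 16.5 and 18.8 FPKM in the sunlight ones. Unigene45062 had 10.4, 8.02 and 11.7 FPKM under shading, against 9.26, 10.3 and 7.79 FPKM in sunlight. The groups overlapped in both, with log2 fold changes of −0.35 ± 0.27 and −0.02 ± 0.34. Of the 8 unigenes named ACC oxidase, 4 contigs of the cluster CL1377 matched flavonol synthase or an oxidase homolog in Swiss-Prot, a second protein database, and none of these reached 2 FPKM in any library.

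ACC synthase makes ACC, the precursor of ethylene, and is usually taken as the controlled step. Its cluster CL9759 had 2 long contigs. CL9759.Contig2 (2240 nt) had 1.95, 1.44 and 5.26 FPKM in the shaded libraries, against 9.26, 14.5 and 4.32 FPKM in the sunlight ones. Y3 was the lowest sunlight library and lay below Y+S3, so the groups overlapped. CL9759.Contig1 (1683 nt) had 0.761, 0.609 and 1.27 FPKM under shading, against 3.24, 6.34 and 2.02 FPKM in sunlight. In the deposited FPKM every shaded library was lower here, but the groups overlapped in normalised CPM. The log2 fold changes were −2.54 ± 0.59 and −2.67 ± 0.61 over 4 libraries, with adjusted p of 0.167 and 0.165 by edgeR, and both passed 0.05 in DESeq2. Over 6 libraries they were −1.50 and −2.02, and with 1 of the 4 libraries left out they lay between −3.25 and −1.30 and between −3.35 and −1.50. The 2 contigs come from one cluster and are not separate evidence. Summed over the cluster the log2 fold change was −2.18 with an adjusted p of 0.210 in edgeR.

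ETO1 and its relatives bind ACC synthase and send it to degradation, as known from Arabidopsis. The 4 tested unigenes of this group had log2 fold changes above 0 over 4 libraries, with a median of 0.72. CL7995.Contig1 had 8.79, 7.27 and 1.48 FPKM under shading, against 1.69, 3.70 and 5.78 FPKM in sunlight. Unigene28007 had 6.08, 3.77 and 1.15 FPKM under shading, against 1.69, 1.71 and 3.21 FPKM in sunlight. In both, Y+S3 was the lowest library by FPKM, and the groups overlapped in normalised CPM too. The 21 synthesis unigenes together had a summed FPKM of 97.4, 160 and 187 in the shaded libraries, against 72.9, 84.3 and 73.2 in the sunlight libraries. Without Unigene40607 the sums were 58.4, 55.1 and 46.6 under shading, against 60.7, 70.02 and 58.5 in sunlight, so the higher sums under shading rested on that unigene. Divided by the TMM factors, the class sums were 87.0, 123 and 269 under shading, against 95.9, 78.1 and 60.5 in sunlight, and the groups overlapped. Of 14 tested synthesis unigenes 8 were higher and 6 lower, with a median log2 fold change of 0.06, which was −0.14 without Y+S1 and −0.23 without Y3.

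**Figure D2:**
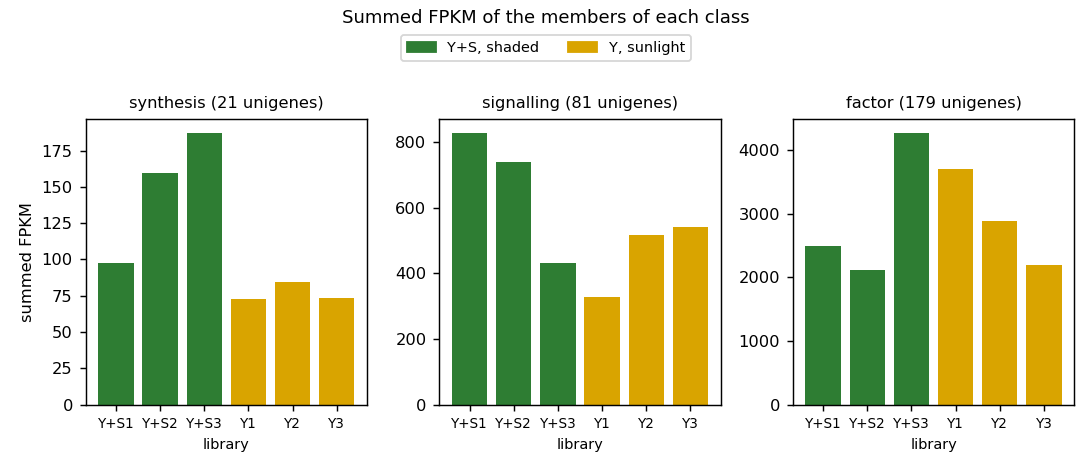
Summed FPKM of the members of each class in each library, with shaded libraries in green and sunlight libraries in yellow. The synthesis sum is higher in every shaded library, though not once divided by the TMM factors, while the signalling sum is low in Y+S3 (432) and Y1 (327) and the factor sum is high in the same 2 libraries (4276 and 3714).

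Signalling unigenes leaned to the shaded side from the receptors to EIN3, mostly by small amounts. The 81 unigenes belong to 42 clusters or single unigenes, so the counts here and by length below are not all of separate genes. Of the 65 tested over 4 libraries, 55 had a log2 fold change above 0 and 10 below, with a median of 0.33, where 51.9% of all tested unigenes were above 0 and their median was 0.03. At an unadjusted p below 0.05, 10 were higher and 1 was lower, which were 15.4% and 1.54% against 7.23% and 7.69% of all unigenes. Over 6 libraries the median was 0.43, and 14 of 63 had every shaded library above every sunlight library in normalised CPM (22.2%, against 6.67% of all), with 2 the other way (3.17%, against 7.28%). The summed FPKM divided by the TMM factors was 740, 571 and 621 in the shaded libraries, against 430, 477 and 448 in the sunlight ones, whereas in the plain FPKM sum Y+S3 was below Y2 and Y3. Counting every signalling unigene, tested or not, by its mean FPKM, 67 of 81 (82.7%) were higher in Y+S1 and Y+S2 than in Y2 and Y3, against 57.5% of all unigenes. Without Y2 the median log2 fold change was 0.53, and it stayed above 0 when any other library of the 4 was left out.

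The length of the unigenes moved with this direction. Over all tested unigenes, 72.2% of those of 2000 nt or more were higher in the 4-library fit, against 49.1% of those from 1000 to 2000 nt and 45.8% of those under 1000 nt. The median signalling unigene was 1542 nt long and the median unigene overall 563 nt. Within the same bounds, 27 of 28 signalling unigenes of 2000 nt or more (96.4%) were higher, 13 of 15 from 1000 to 2000 nt (86.7%) and 15 of 22 under 1000 nt (68.2%). The share was thus above that of all unigenes in each range of length. The markers of xylem, another cell type of the leaf, also moved, with 8 of 9 tested above 0, a median log2 fold change of 0.53 and a summed FPKM over 15 unigenes of 110, 60.6 and 32.8 in the shaded libraries, against 39.7, 25.8 and 36.5 in the sunlight ones. Their part in the signalling values was not tested. In bulk leaves, a larger number of cells of one type and more RNA per cell cannot be told apart.

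**Figure D3:**
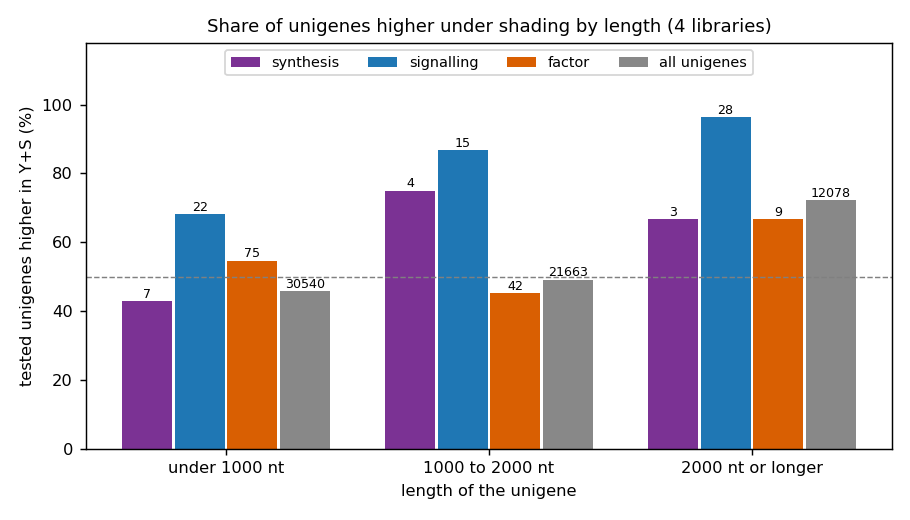
Share of tested unigenes with a log2 fold change above 0 in the 4-library fit, by length and class, with the number tested over each bar and a dashed line at 50%. Signalling unigenes are at 68.2%, 86.7% and 96.4%, and all unigenes at 45.8%, 49.1% and 72.2%.

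Ethylene receptors bind the hormone and repress the response in its absence, and receptor genes are themselves induced by ethylene in several plants. Of 17 receptor unigenes 15 were tested and 13 were higher, with a median log2 fold change of 0.31. The clearest was CL1483.Contig5 (3799 nt), an ethylene receptor 2-like unigene with 17.8, 20.7 and 9.27 FPKM in the shaded libraries, against 2.53, 7.59 and 9.17 FPKM in the sunlight ones. The groups did not overlap, though Y+S3 exceeded Y3 by only a little. The log2 fold change was 1.15 ± 0.23 with an adjusted p of 0.149 by edgeR over 4 libraries, and DESeq2 called it. CL1483.Contig4 of the same cluster had 5.57, 6.01 and 3.17 FPKM under shading, against 1.58, 2.94 and 2.47 FPKM in sunlight. The cluster as a whole had a log2 fold change of 0.93 ± 0.22. Its short contig CL1483.Contig2, the most abundant receptor unigene, had 24.9, 27.9 and 14.8 FPKM in the shaded libraries, against 11.4, 17.2 and 19.2 FPKM in the sunlight ones. In normalised CPM the groups did not overlap for either of these contigs.

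The receptors of the other kinds lay mostly above 0 too, by smaller amounts than the cluster CL1483. Unigene44847, the ETR1-like receptor, had 17.7, 21.9 and 8.86 FPKM under shading, against 8.13, 14.6 and 16.7 FPKM in sunlight, a log2 fold change of 0.29. The cluster of the EIN4-like receptor CL13362 had a log2 fold change of 0.36 ± 0.23. CL2201.Contig1, an ERS1-like receptor, was at 0.32, and its longer neighbour CL2201.Contig3 at −0.35. With counts summed by cluster, CL2201 was at 0.11 and Unigene21619, named ethylene response 1, at 0.27. CL4703.Contig1 was named ERS1a by Nr but matched a chloroplast oxidoreductase in Swiss-Prot. It had 1.56, 0.915 and 0.869 FPKM under shading, against 0.445, 1.42 and 2.22 FPKM in sunlight, and the groups overlapped. The counts summed over the cluster CL4703 gave −1.10 ± 0.26 (adjusted p 0.192 by edgeR). That is not the value of this unigene alone, since no receptor unigene was lower at an unadjusted p below 0.05. The receptors of this paragraph were chosen after their values had been seen, to show the other kinds.

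CTR1 is the kinase that the receptors hold active and that blocks EIN2. Nr gave this name to 27 unigenes, but Swiss-Prot called only 15 of them CTR1, 7 the related kinase EDR1 and 1 the kinase HT1, with 2 matching a potassium channel and 2 nothing. The tested unigenes with CTR1 in both databases were divided, with 8 higher and 4 lower and a median of 0.36. Those with EDR1 or HT1 were all higher, 7 of 7, with a median of 0.69. Unigene38314, named CTR1 by both, had 3.82, 3.10 and 1.29 FPKM under shading, against 0.909, 1.05 and 1.82 FPKM in sunlight, and a log2 fold change of 1.25 ± 0.34. Unigene33080, closest to EDR1, had 26.7, 20.1 and 5.11 FPKM in the shaded libraries, against 6.34, 9.35 and 14.4 FPKM in the sunlight ones. CL1931.Contig1, likewise closest to EDR1, had 6.27, 5.98 and 1.40 FPKM under shading, against 2.16, 3.09 and 3.45 FPKM in sunlight. By FPKM, Y+S3 was among or below the sunlight libraries in these 3 kinases, while in normalised CPM it was above all of them in Unigene38314 and below all of them in the other two. The most abundant of the kind, CL9361.Contig1, had 17.7, 21.5 and 10.9 FPKM under shading, against 13.3, 18.5 and 17.2 FPKM in sunlight, with a log2 fold change of 0.07 ± 0.24.

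EIN2 carries the signal from the endoplasmic reticulum to the nucleus. Its 4 contigs form one cluster, CL7018, with summed values of 22.5, 21.4 and 5.67 FPKM under shading, against 7.89, 14.7 and 17.6 FPKM in sunlight. Y+S3 was the lowest library and Y1 the next lowest, and the log2 fold change of the cluster was 0.45 ± 0.23 over 4 libraries. EIN3 and its close relatives EIL are the transcription factors at the end of the pathway. They were the most abundant signalling unigenes. Unigene8585 had 192, 127 and 52.9 FPKM in the shaded libraries, against 41.8, 78.0 and 92.0 FPKM in the sunlight ones. Unigene1067 had 105, 81.9 and 49.8 FPKM under shading, against 37.6, 56.6 and 59.4 FPKM in sunlight. Unigene1066 had 89.0, 74.0 and 48.6 FPKM under shading, against 45.5, 56.6 and 57.8 FPKM in sunlight. By FPKM, Y+S1 was the highest library in these 3 unigenes, followed by Y+S2, while Y+S3 was below Y2 and Y3. In normalised CPM this order turned, with Y+S3 at 254 and 250.2 in Unigene1067 and Unigene1066, against 185 and 187 in Y2 and 175 and 171 in Y3. In Unigene8585 it was 68.7, against 65.0 and 68.8. The log2 fold changes over 4 libraries were 0.89 ± 0.31, 0.65 ± 0.28 and 0.47 ± 0.27, with adjusted p of 0.258, 0.341 and 0.462 by edgeR.

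EBF1 and EBF2 take part in the removal of EIN3, and in Arabidopsis EBF2 is itself a target of EIN3. Of 21 unigenes that Nr called EIN3-binding F-box proteins, 10 matched these proteins in Swiss-Prot too, and 9 matched other F-box proteins with leucine-rich repeats. All 10 EBF matches, which belong to the clusters CL7365, CL4584 and CL1267, were higher over 4 libraries (median 0.41) and over 6 libraries (median 0.92). In 5 of them every shaded library was above every sunlight library in normalised CPM, against 6.67% of all unigenes. Since 6 of the 10 are contigs of CL7365, these counts are not of separate genes. The sum of the 10 EBF matches was 97.8, 96.8 and 101 FPKM in the shaded libraries, against 38.6, 69.6 and 60.3 FPKM in the sunlight ones. By FPKM the shaded libraries were level, and divided by the TMM factors Y+S3 was the highest, with 87.4, 74.8 and 146 under shading, against 50.8, 64.4 and 49.9 in sunlight. CL7365.Contig6 had 27.1, 30.2 and 17.4 FPKM under shading, against 10.98, 13.2 and 15.5 FPKM in sunlight, a log2 fold change of 0.95 ± 0.23 with an adjusted p of 0.174 by edgeR. CL7365.Contig1 had 14.7, 13.9 and 10.8 FPKM under shading, against 5.81, 7.55 and 7.06 FPKM in sunlight, a log2 fold change of 0.92 ± 0.25. The 8 tested unigenes that matched other F-box proteins had 5 higher and 3 lower and a median of 0.09. Contigs of one cluster share sequence, and a fragment can match several of them, so the values of single contigs may be less certain than their sum.

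The AP2/ERF factors showed no common direction. Of 126 tested over 4 libraries, 66 were higher and 60 lower, with a median log2 fold change of 0.07, which was −0.17 without Y+S1 and −0.23 without Y3. At an unadjusted p below 0.05 there were 21 higher and 11 lower, which were 16.7% and 8.73% against 7.23% and 7.69% of all unigenes. Of the 21, 9 were RAP2-7-like unigenes, many of which passed the filter through the shaded libraries. How far the share of higher factors depends on that filter was not tested. Over 6 libraries the groups did not overlap for 12 higher and 10 lower members of 116, which were 10.3% and 8.62% against 6.67% and 7.28%. The class was more abundant than the other two, with a summed FPKM of 2497, 2123 and 4276 in the shaded libraries, against 3714, 2886 and 2201 in the sunlight ones. The highest library was a shaded one, the next a sunlight one, and these were Y+S3 and Y1. Relative to the mates of its own group, the median factor was higher by 1.04 on the log2 scale in Y+S3 and by 0.49 in Y1, against −0.07 and −0.03 over all tested unigenes and −0.05 and −0.18 for signalling. The factors under 1000 nt alone gave 1.05 and 0.69, against 0.16 and 0.17 for all unigenes of that length, so the median factor was higher in the 2 libraries also within one range of length. Those medians were taken in normalised CPM, in which Y+S3 and Y1 stand higher than in FPKM. By summed FPKM the 22 AP2-like unigenes were lowest in Y+S3, while Y1 was only just below Y+S1. The AP2-like sums were 27.7, 44.7 and 7.39 FPKM under shading, against 26.1, 33.2 and 32.5 FPKM in sunlight. Of 9 tested over 4 libraries, 3 were higher and 6 lower.

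Of the ERF factors higher under shading, Unigene1437 had the smallest p of all members. Nr named it ethylene response factor 10 and Swiss-Prot ERF1B. ERF1, a target of EIN3, activates GCC-box genes. Unigene1437 had 39.6, 53.5 and 69.4 FPKM in the shaded libraries, against 15.6, 11.98 and 15.0 FPKM in the sunlight ones. The groups were well apart, and the lowest shaded library was above 2 times the highest sunlight library. The log2 fold change was 1.73 ± 0.25 over 4 libraries with an adjusted p of 0.0936, and 2.01 over 6 libraries with an adjusted p of 0.512, both by edgeR. It stands on the study's own list of changed unigenes, which was drawn from these same libraries. Unigene52156 shares both names and was named after its values had been seen. It had 91.7, 88.2 and 179 FPKM under shading, against 98.2, 47.1 and 65.2 FPKM in sunlight, where Y1 lay among the shaded libraries.

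Unigene27741, closest to ERF034, had 23.4, 21.6 and 6.78 FPKM under shading, against 4.42, 6.63 and 7.35 FPKM in sunlight. Y+S3 was within the sunlight range by FPKM, though not by normalised CPM, and the log2 fold change was 1.64 ± 0.26 with an adjusted p of 0.106 by edgeR over 4 libraries. CL8756.Contig2 is closest to RAP2-3, a factor of the group that low oxygen stabilises in Arabidopsis. It had 30.8, 22.7 and 31.98 FPKM in the shaded libraries, against 8.87, 12.4 and 14.1 FPKM in the sunlight ones. CL731.Contig1, closest to ERF106, had 7.67, 8.22 and 8.66 FPKM under shading, against 1.81, 3.07 and 4.59 FPKM in sunlight. Both kept every shaded library above every sunlight one, with log2 fold changes of 0.99 ± 0.29 and 1.01 ± 0.29. Summed over their clusters, of 4 and 2 contigs, the log2 fold changes were 0.35 ± 0.24 for CL8756 and 0.73 ± 0.25 for CL731. CL12608.Contig2, an ERF026-like factor, had 6.80, 2.53 and 17.7 FPKM under shading and was nearly absent in sunlight, with 0.461, 0.889 and 0.191 FPKM. Its log2 fold change was 3.05 ± 0.78 over 4 libraries and 4.38 over 6 libraries. The cluster of this contig, taken as a sum of its 2 members, had a log2 fold change of 0.38 ± 0.50, so its other contig did not follow.

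**Figure D4:**
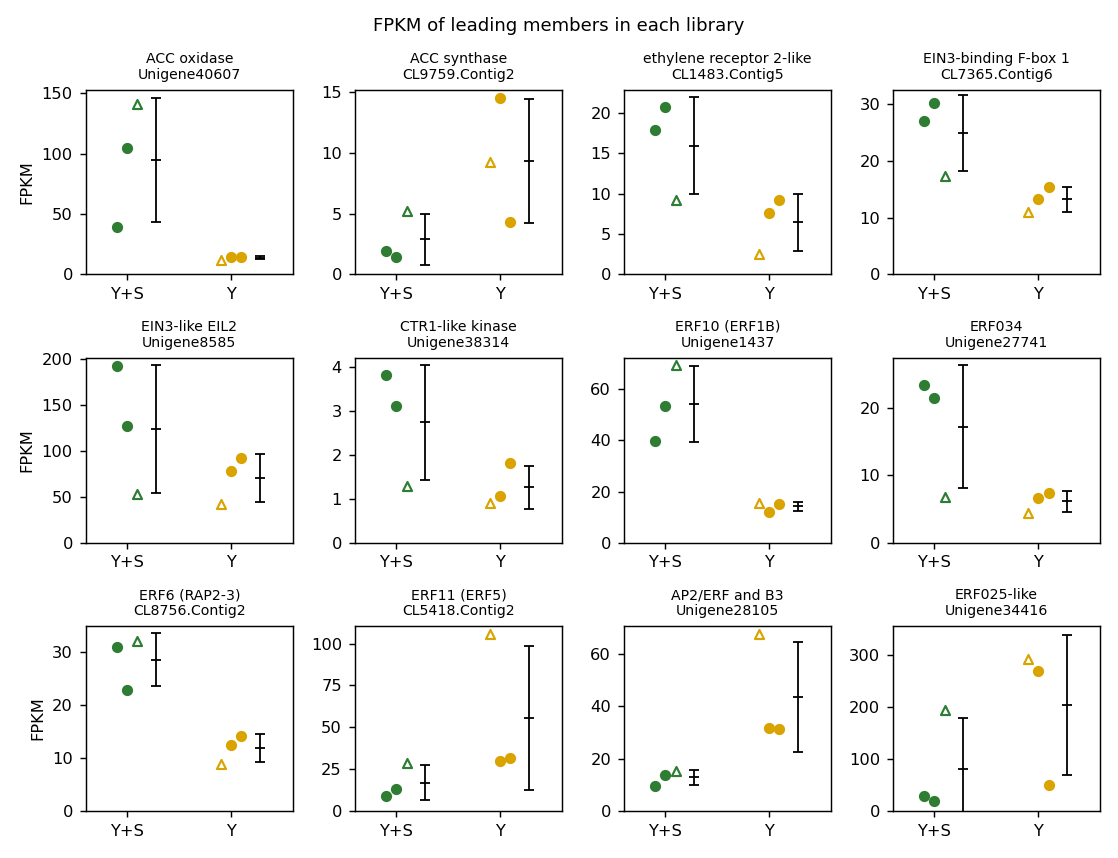
FPKM of 12 members in each library, with circles for the 4 libraries of the first fit, open triangles for Y+S3 and Y1, and a dash with whiskers for the mean and SD over the 3 libraries of a group. The ACC oxidase Unigene40607 has 39.0 to 141 FPKM in shaded leaves and 12.3 to 14.7 FPKM in sunlight leaves, and the ERF025-like factor Unigene34416 spans 18.4 to 194 FPKM under shading and 49.5 to 293 FPKM in sunlight.

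RAP2-7 and its relatives TOE2 and APETALA2 are AP2 factors that hold back flowering in Arabidopsis. Nr gave 15 unigenes the name RAP2-7-like, a group picked out here after its values had been seen. Many were rare and passed the filter over 4 libraries through the shaded libraries, so a count over those tested cannot show a direction. Their summed FPKM was 43.3 and 43.8 in Y+S1 and Y+S2, against 19.6 and 19.7 in Y2 and Y3. In the other 2 libraries it was 20.3 (Y+S3) and 26.0 (Y1), so the groups overlapped over 6 libraries. In that fit 7 were tested, 6 of them higher, with a median log2 fold change of 0.45. Of the 15, 8 belong to the clusters CL1085 and CL14029. Unigene45204 was the one of them that the rule for named genes reached, with 6.78, 5.06 and 2.15 FPKM under shading, against 1.29, 1.94 and 1.76 FPKM in sunlight and a log2 fold change of 1.64 ± 0.42.

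Of the factors lower under shading, CL5418.Contig2 (2129 nt) had the smallest p. It was named ethylene response factor 11 and is closest to ERF5, an activator in defence. It had 8.72, 13.3 and 28.6 FPKM in the shaded libraries, against 106, 30.0 and 31.6 FPKM in the sunlight ones. Every shaded library was lower by FPKM, but Y+S3 came close to Y2 and the groups overlapped in normalised CPM. The log2 fold change was −1.55 ± 0.26 with an adjusted p of 0.109 by edgeR over 4 libraries, and its cluster of 3 contigs had −1.25 ± 0.24. It too stands on the study's own list from these libraries. Unigene28105 is closest to RAV2, a repressor that joins an AP2 domain to a B3 domain. It had 9.55, 13.7 and 15.3 FPKM under shading, against 67.7, 31.5 and 31.3 FPKM in sunlight, with the groups well apart and a log2 fold change of −1.50 ± 0.26 (adjusted p 0.117 by edgeR). CL13168.Contig1, closest to ERF118, had 22.8, 33.3 and 43.8 FPKM under shading, against 76.2, 54.5 and 57.9 FPKM in sunlight. Every shaded library was lower by FPKM, but in normalised CPM Y+S3 (65.1) was above Y2 (51.9) and Y3 (49.6). The log2 fold change was −1.07 ± 0.25 over 4 libraries and −0.86 over 6 libraries.

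Among the DREB factors, which read the DRE element of cold and drought genes, 7 were higher and 6 lower of 13 tested. Unigene34441, a DREB3-like factor, had 6.96, 14.9 and 6.92 FPKM in the shaded libraries, against 38.1, 29.3 and 17.1 FPKM in the sunlight ones. The groups did not overlap, and the log2 fold change was −1.19 ± 0.41 (adjusted p 0.256 by edgeR). Unigene58089, a DREB1-like factor, had 7.51, 2.88 and 35.3 FPKM under shading, against 37.5, 38.4 and 11.9 FPKM in sunlight. Unigene34416, the ERF025-like factor, had 28.6, 18.4 and 194 FPKM under shading, against 293, 269 and 49.5 FPKM in sunlight. In both, Y1, Y2 and Y+S3 were high and Y+S1, Y+S2 and Y3 were low. Y2 exceeded Y3 by 3.23 times in Unigene58089 and by 5.43 times in Unigene34416, and Y+S3 exceeded the mean of the other shaded libraries by 6.79 and 8.27 times. Their log2 fold changes of −2.31 ± 0.68 and −2.84 ± 0.75 over 4 libraries were −0.67 and −1.07 over 6 libraries.

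The 5 most abundant factors held 36.4% to 47.0% of the summed FPKM of the class. Unigene34416 was one of them. Unigene56648, closest to RAP2-2, had 286, 490 and 443 FPKM in the shaded libraries, against 243, 420 and 410 FPKM in the sunlight ones. Unigene50135, RAP2-4-like, had 234, 165 and 316 FPKM under shading, against 175, 207 and 181 FPKM in sunlight. The highest library exceeded the lowest by 2.02 times in the first and 1.91 times in the second, and the groups overlapped in both. Unigene10336 and CL3484.Contig2 are closest to ERF4, a repressor of GCC-box genes. Unigene10336 had 259, 78.0 and 545 FPKM under shading, against 421, 306 and 211 FPKM in sunlight. CL3484.Contig2 had 103, 76.9 and 382 FPKM under shading, against 430, 153 and 83.8 FPKM in sunlight. These 2 unigenes differed more between the libraries of a group, with the highest library 6.99 and 5.59 times the lowest. The log2 fold changes of the 4 were −0.17 ± 0.31, 0.00 ± 0.33, −0.63 ± 0.56 and −0.45 ± 0.39.

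The libraries outside the first fit gave a separate comparison of 1 shaded with 1 sunlight library. Of the 48 members with an unadjusted p below 0.05, 35 (72.9%) had the same direction between Y+S3 and Y1, against 74.8% of the 9593 unigenes that met the same bound. The share among the members was thus near that of all unigenes. Those that were lower held more often, 13 of 14, than those that were higher, 22 of 34. The same inequality was seen over all unigenes, with 4216 of 4943 and 2957 of 4650, and the median difference over all tested unigenes was −0.15. The 2 EBF unigenes, another F-box unigene and the 2 receptors among the 48 kept their direction, as did both ACC synthase contigs and Unigene40607, while 3 of 5 CTR1-like unigenes and the 2 ETO1-like ones did not. With 1 library on each side there was no test.

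**Figure D5:**
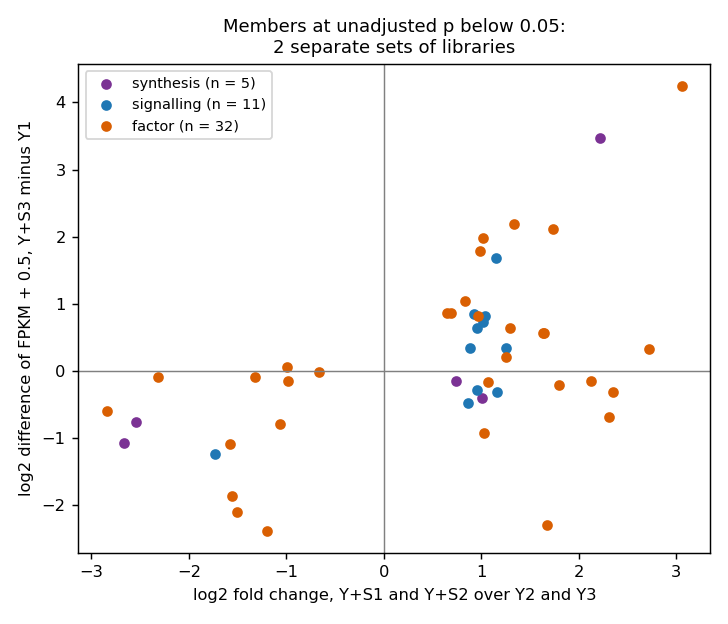
Log2 difference of FPKM + 0.5 between Y+S3 and Y1 against the log2 fold change of the 4-library fit for the 48 members with an unadjusted p below 0.05, with 1 point per unigene coloured by class. The direction is the same for 35 of the 48 points, for 13 of 14 on the left and 22 of 34 on the right.

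Genes around the pathway were taken from lists by their Nr names. Methionine and S-adenosylmethionine (SAM) supply provides the substrate of ACC synthase. Of 31 tested unigenes 21 were higher and 10 lower, with a median log2 fold change of 0.35, and 7 were higher and 0 lower at an unadjusted p below 0.05. Over all tested unigenes 51.9% were above 0, and 7.23% were higher and 7.69% lower at that bound. Unigene46250, an SAM synthetase and by far the most abundant of the list, had 1498, 1425 and 1216 FPKM in the shaded libraries, against 384, 861 and 733 FPKM in the sunlight ones. The groups did not overlap, and the log2 fold change was 0.82 ± 0.33 with an adjusted p of 0.303 by edgeR. Y1 was the lowest library, as it was for 31 of the 64 signalling unigenes of at least 1 FPKM. SAM also serves many methylation reactions.

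The downstream lists had no clear direction over 4 libraries. Of 34 tested defence proteins of the GCC-box type (chitinases, glucanases, osmotins), 16 were higher and 18 lower, with a median of −0.10. The summed FPKM of the list was 558, 583 and 1102 in the shaded libraries, against 507, 493 and 452 in the sunlight ones. In normalised CPM, 0 of its unigenes had every shaded library above every sunlight one, against 6.67% of all unigenes. The reverse held for 4, against 7.28% of all. Of 17 cold and drought proteins of the DRE type (dehydrins, galactinol synthases), 10 were higher and 7 lower, with a median of 0.28. Over 6 libraries the first list had 23 higher and 11 lower, with a median of 0.64, and the second 11 higher and 5 lower, with a median of 0.57. Unigenes with AP2/ERF names outside the search words, such as APETALA2 and TINY, were higher in 7 of 7 tested, with a median of 0.30 and no unadjusted p below 0.05. Of the marker lists, 24 leaf mesophyll unigenes were higher and 14 lower, with a median of 0.32, and 11 cuticle and epidermis unigenes were higher and 16 lower, with a median of −0.11.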

How the data were processed

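The data were RNA-seq libraries of tea leaves. The authors made stranded mRNA libraries, removed adapters and poor reads, assembled all clean reads with Trinity, TGICL and Phrap, and annotated the unigenes by Blast. They deposited, for each unigene and library, the raw count of fragments and the FPKM. The aligner was not given in the sources used here. The deposited FPKM differed from values recomputed from counts and lengths by rounding only. Columns were matched to libraries by the key deposited with the table. 1 line of the table, emptied for this work, was not used.

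All unigenes kept by filterByExpr entered edgeR 4.0.16 (R 4.3.3) with TMM factors and its quasi-likelihood test, and p-values were adjusted after Benjamini-Hochberg at a threshold of 0.05. Over 4 libraries 0 unigenes passed the threshold of the study (adjusted p at 0.001, log2 fold change at 1) in edgeR. The study applied this threshold with another package, DESeq, and did list changed unigenes, so the 0 holds for the edgeR test only. Of the 281 members, 76 failed the filter over 4 libraries, with a median of 0.636 FPKM. They had to pass it in 2 libraries, which a group with high values can do alone. A count of 0 allows up to 3 counts, or 0.160 to 0.299 CPM, which covers counting error only. P-values test the group difference against the spread between the plants in the fit. Over 4 libraries that spread leaves out Y1 and Y+S3, and the biological coefficient of variation was 0.282, against 0.513 over 6 libraries. The scripts were tested on simulated counts.

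The members and lists were chosen with earlier results of these data known. Named were up to 6 abundant synthesis and signalling unigenes per class (mean FPKM of at least 5) and up to 6 more by p, the 6 factors with the smallest p in each direction (mean FPKM of at least 1), the 5 most abundant factors and those on the study's list. Alternatives were DESeq2 1.42.0, no filter, upper-quartile scaling, limma 3.58.1 on log2(FPKM + 0.5), counts summed by cluster, a block for the replicate number, and fits that lacked 1 library. The authors' comparisons in the supplementary tables were not used as values.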

Additional observations from a re-analysis of the deposited data

How the results depend on the processing

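Over 4 libraries edgeR called 0 members, against 10 with DESeq2, 9 without the filter on low counts (3.23% of the members, against 0.757% of all unigenes), and 0 to 33 (0% to 15.5%, against 0% to 9.55%) when 1 library was left out, with a lone library assumed to vary like the others. At an unadjusted p below 0.05 there were 48 members, 29 with all 6 libraries, and 30 to 69 with 1 library left out. Over 6 libraries edgeR called 0 members and DESeq2 called 3. In that fit 39 members had groups that did not overlap, and 50 to 81 with 1 library left out (25.9% to 42.0%, against 20.2% to 39.2% of all). The median log2 fold change with 1 library left out of the 4 lay between −0.23 and 0.23 for synthesis, 0.28 and 0.53 for signalling, and −0.23 and 0.30 for the factors.

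The 35 named unigenes gave 70 fold changes over 4 and 6 libraries, of which 57 kept their sign under every alternative run. The other 13 changed sign in at least 1 of them. With all 6 libraries in place of 4, the log2 fold change was −0.015 for CL9361.Contig1, 0.10 for Unigene10336, 0.20 for Unigene45062 and 0.29 for Unigene56648. Unigene45062 was at 0.027 in limma and 0.0095 with clusters summed. Unigene50135 was at −0.034 in DESeq2, −0.0013 without the filter and −0.022 with upper-quartile scaling. With 1 of the 4 libraries left out, CL3484.Contig2 lay between −0.92 and 0.15, CL9361.Contig1 between −0.10 and 0.20, Unigene10336 between −1.91 and 0.021, Unigene45062 between −0.35 and 0.29, Unigene50135 between −0.40 and 0.30, and Unigene56648 between −0.50 and 0.074. With 1 of the 6 left out, CL3484.Contig2 lay between −1.78 and 1.17, CL9361.Contig1 between −0.12 and 0.057, Unigene10336 between −1.21 and 0.67, Unigene2695 between −0.44 and 0.14, Unigene45062 between −0.26 and 0.48, Unigene50135 between −0.17 and 0.81, and Unigene56648 between −0.11 and 0.54. The cause was not tested.

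The replicate numbers are shared by the groups. Deviations from the group means correlated between libraries of the same number at −0.37, 0.01 and −0.48, and not every library correlated best with its own number. The highest correlation, 0.42, was between Y+S3 and Y1, the libraries that stood apart. Deviations from means that include these libraries cannot show whether the numbers pair the plants. With the replicate block over 6 libraries edgeR called 0 members, as without it, and the log2 fold change of Unigene10336 became −0.58. Dividing the summed FPKM by the TMM factors, a choice made after the data were seen, gave log2 ratios of the mean shaded to the mean sunlight sum of 1.03 for synthesis, 0.51 for signalling and 0.10 for the factors, against 0.95, 0.53 and 0.02 without it. The filter over 4 libraries was failed by 76 of 281 members. Of these, 7 were at 0 in every sunlight library and 1 in every shaded library. The part of sequencing depth in this was not tested.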
